A study of Homo sapiens with 6 samples.

Results

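The NDRG family consists of 4 genes, NDRG1, NDRG2, NDRG3 and NDRG4, named after N-myc downstream-regulated gene 1. Its members were taken by name: of 62252 genes with transcripts in the deposited tables, the 4 whose GENCODE gene name is NDRG1 to NDRG4 were kept, a rule that uses names and no measured value. All 4 were detected and tested. RNA came from K562 cells, an erythroid leukemia line. The DMSO group (n = 3) received solvent and the Chelator group (n = 3) received 10 µM 21H7, a cell-permeable iron chelator, in a matched volume, in both cases overnight. The comparison asks which of these genes and isoforms differ when iron is bound. It covers a single line, dose and time, and bulk RNA cannot tell fewer expressing cells from less RNA per cell.

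NDRG proteins share an alpha/beta-hydrolase fold but are not known to work as hydrolases. NDRG1 is a stress-responsive gene, known for induction by hypoxia, by iron chelators and by differentiation, and for repression by N-myc and MYC. SGK1 and GSK3 phosphorylate the NDRG1 protein. NDRG2 is best known from astrocytes and as a growth-restraining gene. NDRG3 protein is controlled by the oxygen-dependent prolyl hydroxylase EGLN1 (PHD2) and binds lactate. NDRG4 is best known from brain and heart.

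The DMSO libraries held 78.6 to 90.4 M estimated counts and the Chelator libraries 85.4 to 101.1 M. All 9 erythroid marker genes reached 1 TPM (a level corrected for transcript length and library size), with a summed level of 9742 to 10825 TPM in DMSO and 12753 to 13574 TPM in Chelator. They did not move together: 4 passed the p-value threshold as higher, the globin genes HBG1, HBG2 and HBZ, which make up most of the sum, and ALAS2. KLF1 (log2 fold change -0.72), EPOR (-0.44) and TAL1 (-0.28) passed it as lower, and GATA1 did not pass. Of 10 markers of other cell types, 4 reached 1 TPM, among them EPCAM, LYZ and COL1A1, MS4A1 was at 0 in every library, and their summed level was 76.5 to 83.2 TPM in DMSO and 67.8 to 75.2 TPM in Chelator. The part of these markers in the results below was not tested. Within the groups, DMSO replicate 2 and Chelator replicate 1 lay furthest from their group partners, and each count and fold change was also computed without each library. The median difference between transcript length and effective length, a measure of fragment length, was 252 to 264 bases in DMSO. It was 200 to 218 bases in Chelator. Fragment length and treatment therefore cannot be told apart.

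NDRG1 rose from one of the least abundant members to a level near that of NDRG3, NDRG3 fell to 60.3% of its DMSO level, and for NDRG2 and for the summed transcripts of NDRG4 no change passed the test. A gene is named as called where its absolute log2 fold change was above 1 and DESeq2's Wald test gave a Benjamini-Hochberg adjusted p below 0.05. NDRG1 was the 1 member called. Of 25553 genes with an adjusted p, 10.3% were called, 7.81% as higher and 2.46% as lower.

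NDRG1 (ENSG00000104419.17, hg38 chromosome 8, 133237175 to 133302022, minus strand) rose from 147, 179 and 119 estimated counts with DMSO to 4694, 3894 and 3536 with the chelator. Its level was 0.631, 1.00 and 0.823 TPM in DMSO and 22.6, 15.5 and 17.4 TPM in Chelator. Each Chelator library lay far above each DMSO library, and Chelator replicate 1 was the highest. The log2 fold change was 4.49 ± 0.17 (SE), a 22.5-fold rise with a 95% interval of 18.0 to 28.2 (DESeq2, adjusted p = 3.70e-160). Of the 439 called higher genes that averaged 500 or more normalized counts, 16 had a larger log2 fold change, as did 271 of all 1996 called higher genes. Without Chelator replicate 1 the log2 fold change was 4.30.

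NDRG2 (ENSG00000165795.25, chromosome 14, 21016763 to 21070872, minus strand) was the most abundant member in every library. It stood at 46.7, 43.7 and 41.7 TPM in DMSO and at 47.6, 49.7 and 49.1 TPM in Chelator. The TPM values of the groups were close but did not overlap, while the normalized counts (4869, 3834 and 4280 against 4701, 4624 and 4701) did. Over all genes tested, 47.9% had normalized counts that did not overlap between the groups. The log2 fold change of 0.11 ± 0.095 (SE) did not pass the test (DESeq2, adjusted p = 0.401), and its 95% interval ran from -0.074 to 0.30. Without the correction for transcript length the log2 fold change was 0.23 with an adjusted p of 0.0142. In DMSO the average effective length of NDRG2 transcripts was 1174, 1237 and 1204 bases. It was longer in each Chelator library, at 1319, 1290 and 1336 bases.

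NDRG3 (ENSG00000101079.21, chromosome 20, 36651766 to 36746090, minus strand) went the other way. It had 24.1, 27.5 and 24.2 TPM in DMSO and 16, 14.9 and 15.6 TPM in Chelator. The groups did not overlap, as was the case for 47.9% of all genes tested in either direction and 22.9% in this one. The log2 fold change was -0.73 ± 0.079 (SE), with an adjusted p of 7.18e-19 in DESeq2. It passed the p-value threshold, as 17.4% of genes did in this direction, but not the threshold on fold change, so it was not called.

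NDRG4 (ENSG00000103034.15, chromosome 16, 58462846 to 58513628, plus strand) was near the bottom of the range in both groups. Its level was 0.453, 0.653 and 0.891 TPM in DMSO and 0.574, 0.734 and 1.53 TPM in Chelator, on 61.0 to 147 estimated counts a library. The TPM values overlapped between the groups, and Chelator replicate 3 was the highest. The log2 fold change over all transcripts was 0.46 ± 0.39 (SE), with an adjusted p of 0.403 (DESeq2) and a 95% interval of -0.31 to 1.24. Without Chelator replicate 3 it was -0.051.

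**Figure D1:**
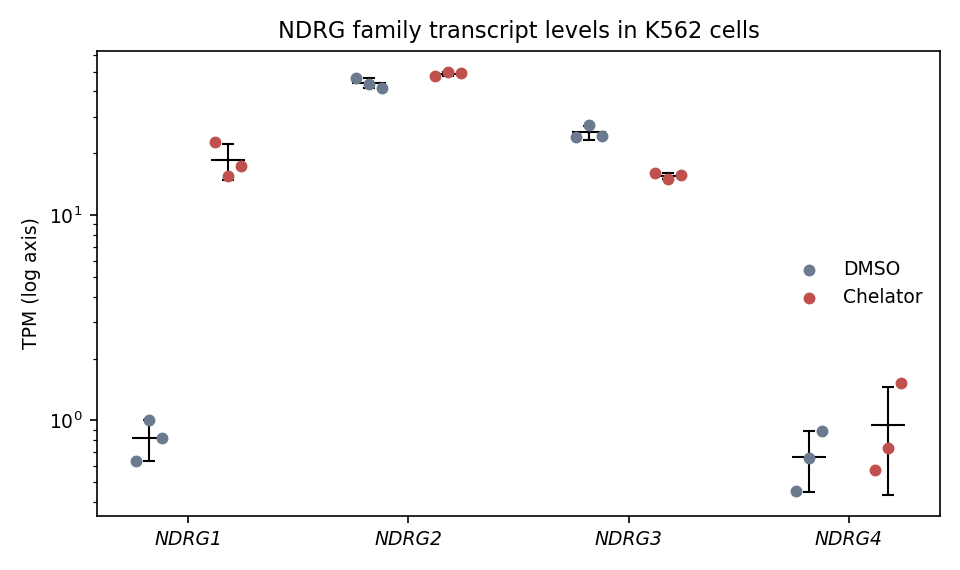
TPM of each NDRG gene in each library on a log axis, with DMSO in blue-grey and Chelator in red. Points are single libraries and black bars are the group mean ± SD (n = 3). The 3 Chelator points of NDRG1 lie at 15.5 to 22.6 TPM against 0.631 to 1.00 TPM in DMSO.

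The order of the 4 genes by TPM differed between the groups. In DMSO it was NDRG2, NDRG3, then NDRG1 and NDRG4, whose values overlapped. In Chelator it was NDRG2, then NDRG1 and NDRG3, whose values overlapped (15.5 to 22.6 and 14.9 to 16 TPM), then NDRG4. The summed level of the family was 70.8 ± 2.79 TPM in DMSO and 83.7 ± 2.97 TPM in Chelator (SD, n = 3). NDRG1 made up 1.16% ± 0.25 of it in DMSO and 22% ± 3.6 in Chelator, whereas the share of NDRG3 was 35.7% ± 2.2 and 18.5% ± 0.14. The share of NDRG2 was 62.2% ± 2.6 and 58.3% ± 3.3, with overlapping values.

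The log2 ratio of NDRG1 to the sum of the other members was -6.82, -6.17 and -6.34 in DMSO and -1.51, -2.08 and -1.93 in Chelator, without overlap. The difference of 4.60 corresponds to a 24.3-fold change of the ratio within the same libraries. An exact two-sided permutation test gave p = 0.1, the smallest value that 3 libraries against 3 allow. The ratio of NDRG1 to NDRG3 alone changed by 5.20 on the log2 scale. Being taken within a library, these ratios do not depend on size factors.

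**Figure D2:**
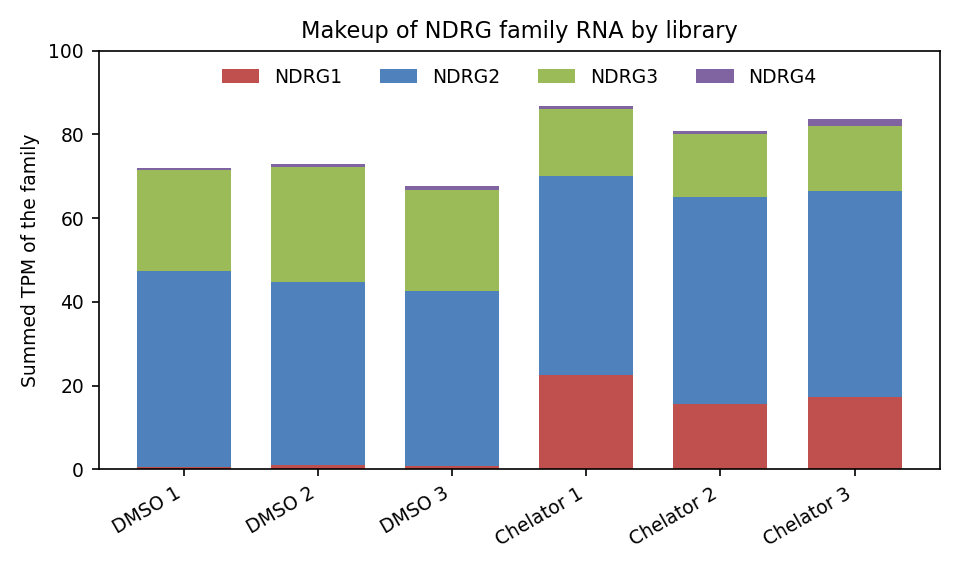
Summed TPM of the NDRG family in each library (y axis), divided by gene. The NDRG1 part grows from 0.878 to 1.37% of the bar in DMSO to 19.2 to 26.0% in Chelator, and the NDRG3 part is smaller in each Chelator bar than in any DMSO bar.

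The rise of NDRG1 was carried by a single transcript. NDRG1-201, a protein-coding transcript of 3025 bases that starts at position 133297252, held 143, 177 and 111 counts in DMSO and 4555, 3777 and 3417 in Chelator. That was 93.7 to 98.9% of the gene's counts in DMSO and 96.6 to 97.0% in Chelator. Of 60 NDRG1 transcripts in the tables, 43 were listed at 0 in every library, and all transcripts besides NDRG1-201 summed to 2 to 7.52 counts in DMSO and 117 to 139 in Chelator. Both NDRG1-201 and the sum of the others were higher in each Chelator library than in any DMSO library. Normalized counts were higher in that way for 25% of all genes tested.

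Among the minor transcripts, retained-intron transcripts summed to 4.08, 2 and 0 counts in DMSO and 80.6, 103 and 89.8 in Chelator. NDRG1-212, one of them, had 0 counts in each DMSO library and 24.0, 64.2 and 59.3 in Chelator. In share of the gene's counts, retained-intron transcripts took 0 to 2.78% in DMSO and 1.72 to 2.65% in Chelator, with overlap. Transcript usage within NDRG1, tested with edgeR's diffSpliceDGE over the 3 transcripts with enough counts, did not pass (Simes method, adjusted p = 0.295). Start-site usage did not pass either (adjusted p = 0.367). In DMSO all minor transcripts together had at most 7.52 counts a library, and each minor start site tested had 0 to 4.08. They therefore reached the minimum of 10 counts only in the 3 Chelator libraries. With so few DMSO counts, these tests cannot decide whether usage within NDRG1 changed. Of 11938 genes tested for transcript usage 9.22% were called (adjusted Simes p under 0.05 and a share change above 5 percentage points), and of 9058 tested for start sites 6.43%. In TPM, which divides by length, very short transcripts with few counts weigh heavily: NDRG1-224 (530 bases) took 31.6% of the gene's TPM in DMSO replicate 3 on 5.16 counts.

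Reads of NDRG1 overlap with those of 1 other gene model. The noncoding ENSG00000289316, of 757 bases on the same strand (chromosome 8, 133237171 to 133237927), shares 723 of its 727 stretches of 31 bases with NDRG1. It had 0 counts in each DMSO library and 81.1, 95.7 and 80.9 in Chelator. Reads from it and from the NDRG1 end cannot be told apart in these tables, so its own change is uncertain. Conversely, NDRG1-201 shares 24.1% of its stretches of 31 bases with that gene alone.

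No other neighbour was called. CCN4, on one side of NDRG1, had 1 count in DMSO replicate 2 and 0 elsewhere. ST3GAL1, a sialyltransferase on the other side and 152826 bases away, had a log2 fold change of 0.17 ± 0.19 (SE, adjusted p = 0.538, DESeq2). Beside NDRG2, ZNF219 (log2 fold change -0.55, adjusted p = 0.000645) and beside NDRG4, SETD6 (-0.55, adjusted p = 9.16e-06) fell, short of the fold threshold for a call. DSN1, the neighbour of NDRG3 at 5701 bases, had a log2 fold change of 0.19 (adjusted p = 0.0626), against the fall of NDRG3. ARHGEF40, which overlaps the NDRG2 locus on the other strand, had -0.11 (adjusted p = 0.616), and GINS3, the other neighbour of NDRG4, had -0.14 (adjusted p = 0.191). The remaining overlapping and nearest genes had at most 12.3 counts in any library.

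The isoforms of the other members differed in kind. NDRG3 RNA was nearly all NDRG3-201, of 2971 bases, with 90.4 to 97.3% of the gene's TPM over the 6 libraries. Its usage did not pass the test, with an adjusted p of 1.00 for transcripts and for start sites. NDRG3-201 shares 5.34% of its stretches of 31 bases with other genes.

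NDRG4 RNA was a mixture. Its protein-coding transcripts, which encode the NDRG4 protein, summed to 33.2, 21.3 and 27.4 counts in DMSO and 90.8, 83.1 and 99.1 in Chelator, with no overlap. Its retained-intron transcripts summed to 48.8, 34.7 and 64.6 counts in DMSO and 26.2, 43.6 and 46.7 in Chelator, with overlap. Protein-coding transcripts thus held 35.1% ± 5.35 of NDRG4 counts in DMSO and 70.0% ± 6.73 in Chelator (SD, n = 3). In TPM their share was 35.6, 15.6 and 14.1% in DMSO and 59.9, 45.1 and 37.1% in Chelator. The means of these TPM shares were 21.7% ± 12.0 and 47.4% ± 11.6, so the groups lay close together.

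When the DESeq2 fit was restricted to protein-coding transcripts of every gene, NDRG4 was called higher, with a log2 fold change of 1.70 ± 0.43 (SE), a 3.25-fold rise with a 95% interval of 1.80 to 5.86 (adjusted p = 0.000264). In that fit 9.81% of 15187 genes were called higher. The log2 fold change was between 1.41 and 1.93 without each library in turn, with the highest adjusted p at 0.00907. In the same fit NDRG1 (4.47) and NDRG3 (-0.67) kept their directions. Most NDRG4 protein-coding counts were placed on NDRG4-236, with 32.2, 21.3 and 27.4 counts in DMSO and 90.8, 33.4 and 93.7 in Chelator, and in Chelator replicate 2 on NDRG4-221, with 48.6. Both start in the cluster of start sites at 58500047 to 58500146. The 8 annotated transcripts that start at 58463631 to 58463725 had no counts in any library.

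The usage tests for NDRG4 did not pass with edgeR (adjusted p = 0.870 for transcripts and 0.414 for start sites). The largest share change was that of NDRG4-219, a retained-intron transcript, at 36.8, 18.2 and 26.5% of NDRG4 TPM in DMSO and 15.7, 6.75 and 5.17% in Chelator, without overlap, on 11.6 to 42.5 counts a library. Of 74109 transcripts tested, 30.9% had shares that did not overlap between the groups, 17% with the higher and 13.9% with the lower values in Chelator. With limma's diffSplice the start-site test passed (adjusted p = 0.00709). That method called 1434 genes for start sites, against 582 with edgeR.

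**Figure D3:**
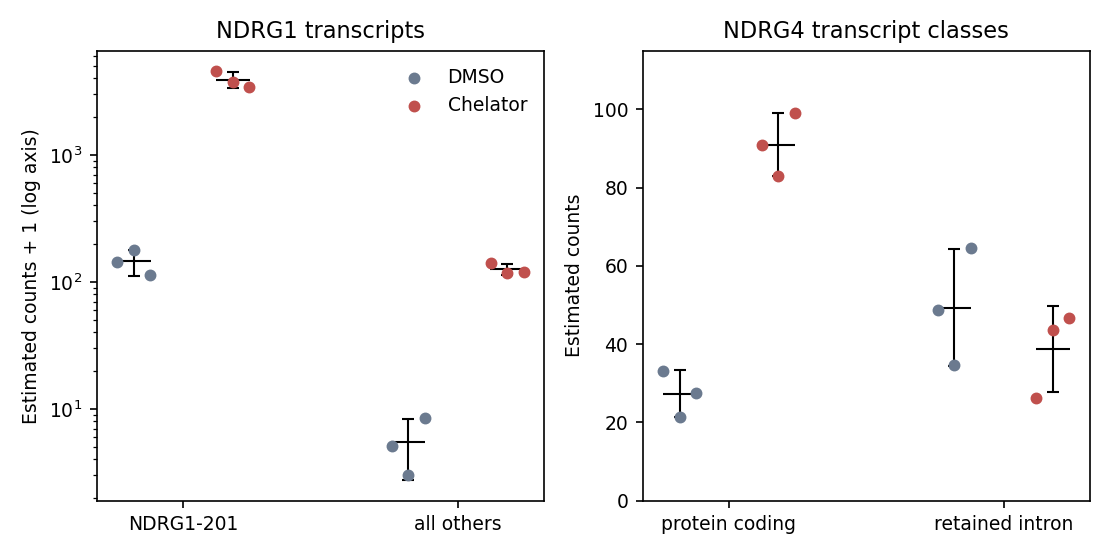
Left, estimated counts plus 1 on a log axis of NDRG1-201 and of all other NDRG1 transcripts summed. Right, estimated counts of NDRG4 summed over protein-coding and over retained-intron transcripts. Points are libraries and bars the mean ± SD (n = 3 per group). Both NDRG1 classes are higher in each Chelator library, and of the NDRG4 classes only the protein-coding counts separate the groups, at 83.1 to 99.1 against 21.3 to 33.2.

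NDRG2 had the most isoforms in use, with counts for 56 of its 77 transcripts. They differ, among other things, in start site and in a short exon. The exon, of 42 bases or 14 codons (hg38 chr14:21022864-21022905, minus strand), is held by 21 annotated transcripts and skipped by 36. It is shown with 40 bases of the flanking intron on each side, because its inclusion separated the groups; the exon is in capitals, and the intron ends in ag before it and begins with gt after it:
NDRG2 exon with flanks, chr14:21022824-21022945, minus strand: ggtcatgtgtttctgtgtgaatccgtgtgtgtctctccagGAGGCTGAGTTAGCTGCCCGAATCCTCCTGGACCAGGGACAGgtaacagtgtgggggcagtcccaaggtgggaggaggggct

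Inclusion of the exon, as the share of TPM from transcripts that hold it, was 43.9, 49.5 and 42.4% in DMSO and 35.8, 34.0 and 31.3% in Chelator. The means were 45.2% ± 3.7 and 33.7% ± 2.3 (SD, n = 3), a difference of -11.6 percentage points, and the groups did not overlap. Across 20848 annotated skipped exons, 12.9% had groups that did not overlap with the lower values in Chelator. In limma on the log2 ratio of inclusion to exclusion the exon was not called (adjusted p = 0.213 over all 20848 exons). Of these exons 0.35% were called, 0.182% as lower, and 19% had an unadjusted p under 0.05, as the NDRG2 exon did. The exon was chosen after its values were seen. None of the 8 exon events tested in NDRG2 and NDRG3 passed. The lowest adjusted p in limma, 0.121, was that of a 48-base NDRG2 exon (21018457 to 21018504). Its mean inclusion was 99.0% in DMSO and 96.7% in Chelator. Depending on the flanking exons, a 67-base NDRG2 exon (21024030 to 21024096) changed by -15.1 or -5.59 points. The 100 bases of intron upstream of the exon, in transcript direction, hold 25% C and the 100 bases downstream 27%, with medians over all exons tested of 20% and 19%. Of all exons tested, 34.4% and 20.9% had at least as much C on the respective side.

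Of the 6 NDRG2 transcripts with a mean share of at least 5% in either group, 2 hold the exon. NDRG2-209 was at 16.2, 23.0 and 20.4% of NDRG2 TPM in DMSO and 12.4, 13.3 and 7.79% in Chelator. NDRG2-202 was at 10.0, 10.2 and 3.36% in DMSO and 3.997, 1.77 and 4.71% in Chelator. The shares of NDRG2-209 did not overlap between the groups and those of NDRG2-202 did. Of the 26 NDRG2 transcripts tested, 7 (26.9%) had higher and 2 (7.69%) lower shares in Chelator without overlap, against 17% and 13.9% of all 74109 transcripts tested. Of the 4 that skip the exon, NDRG2-203 was at 5.10, 4.94 and 8.21% in DMSO and 9.79, 11.2 and 14.2% in Chelator, and NDRG2-226 at 7.09, 6.29 and 7.21% and 6.61, 8.11 and 9.97%. NDRG2-272, a nonsense-mediated decay transcript, ranged from 7.91 to 21.4% and NDRG2-275 from 4.35 to 19.7%, with overlap for each.

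NDRG2 transcripts start in 2 main clusters. The promoter windows of a start in each cluster are shown in RefSeq's GRCh38.p14 coordinates, because the shares of the clusters separated the groups; capitals mark ACGTG or GCGTG on either strand, the core of the hypoxia response element:
NDRG2 downstream start, chr14:21025056-21025355, minus strand: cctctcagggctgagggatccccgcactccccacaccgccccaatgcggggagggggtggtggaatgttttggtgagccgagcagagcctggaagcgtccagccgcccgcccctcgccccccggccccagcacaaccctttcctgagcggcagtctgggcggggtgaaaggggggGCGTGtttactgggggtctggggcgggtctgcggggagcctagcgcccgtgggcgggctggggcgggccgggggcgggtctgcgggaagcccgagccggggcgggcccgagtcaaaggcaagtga
NDRG2 upstream start, chr14:21025703-21026002, minus strand: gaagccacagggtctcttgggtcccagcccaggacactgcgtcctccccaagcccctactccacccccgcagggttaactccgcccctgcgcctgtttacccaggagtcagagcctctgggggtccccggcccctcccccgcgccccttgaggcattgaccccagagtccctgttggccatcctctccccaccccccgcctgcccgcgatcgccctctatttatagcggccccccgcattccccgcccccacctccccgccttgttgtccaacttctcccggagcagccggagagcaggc
The first window holds the motif 1 time and the second does not hold it, while 48.4% of 35116 RefSeq promoter windows of 300 bases hold it at least 1 time. The promoter table held 5 windows for NDRG2 and 4 for NDRG4. The NDRG4 window at 58500143, in the start cluster with the largest mean share of NDRG4 TPM, holds none. That at 58463715, without counts, holds 4, and those at 58464282 and 58465110 hold none.

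The downstream cluster, 21025000 to 21025289, took 61.6, 65.4 and 67.2% of NDRG2 TPM in DMSO and 58.7, 56.4 and 52.3% in Chelator. The upstream cluster, 21025490 to 21025848, took 19.8, 20.1 and 15.7% in DMSO and 24.4, 26.3 and 25.8% in Chelator. The groups did not overlap for either cluster, as was the case for 30.6% of 32181 start sites tested, 16.9% with the higher and 13.7% with the lower values in Chelator. When start sites were joined within 1000 bases the share of the site that holds NDRG2-209 changed by -0.63 points in place of -8.97. The tests within NDRG2 did not pass with edgeR, with adjusted p = 0.433 for transcripts and 1.00 for start sites. With limma's diffSplice they passed, with 0.00218 and 0.00773, and that method called 3184 genes for transcript usage against 1101 with edgeR.

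**Figure D4:**
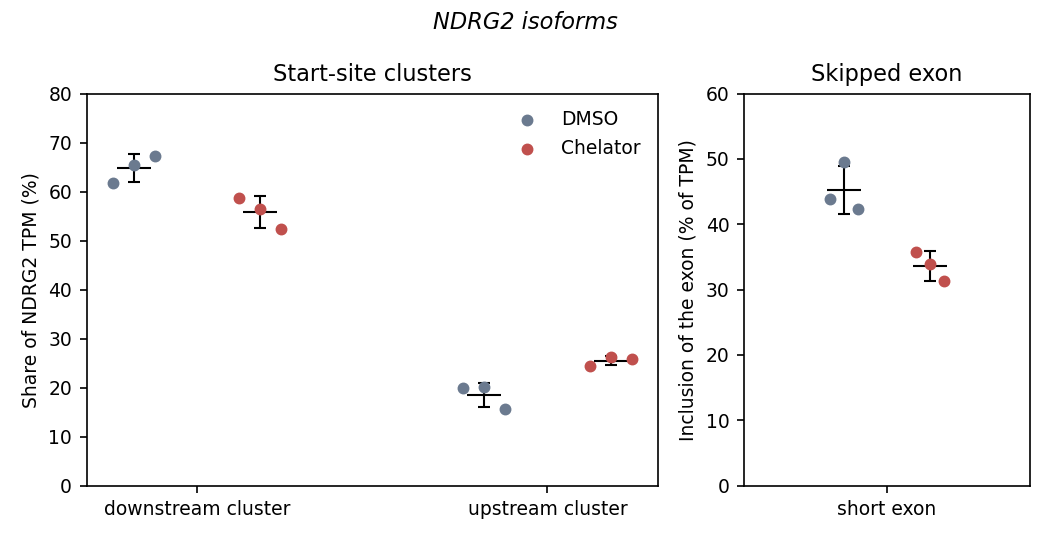
Left, share of NDRG2 TPM (%) from the downstream and the upstream cluster of start sites. Right, inclusion of the 42-base exon (% of TPM). Points are libraries and bars the mean ± SD (n = 3 per group). The downstream cluster is at 52.3 to 58.7% in Chelator against 61.6 to 67.2% in DMSO, and exon inclusion at 31.3 to 35.8% against 42.4 to 49.5%.

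Genes known to act on or with the family were examined as lists. Among 7 genes of the kinase pathway of NDRG1, SGK1, which phosphorylates NDRG1, was called higher and none was called lower. SGK1 had normalized counts of 329, 303 and 273 in DMSO and 1286, 1077 and 1116 in Chelator. Its log2 fold change was 1.94 ± 0.14 (SE, adjusted p = 1.46e-44, DESeq2). GSK3B, the kinase that acts on NDRG1 after SGK1, fell by 0.36 on the log2 scale (adjusted p = 0.00011), short of a call. GSK3A (-0.011), PDPK1 (-0.033), which activates SGK1, and RICTOR (0.14), a subunit of mTORC2, did not pass, and neither did SGK2 or SGK3. The median of the list was -0.011, against 0.019 over all genes with an adjusted p.

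Of 7 transcription factors reported to act on NDRG1, 6 were tested, 3 of them were called higher and none lower. The shares over all genes were 7.81% and 2.46%. EPAS1 (HIF-2 alpha) went from normalized counts of 632, 623 and 536 to 5482, 4044 and 5597, which is 3.08 ± 0.13 on the log2 scale (SE, adjusted p = 6.86e-121, DESeq2). EGR1, an immediate-early zinc finger factor, had 3943, 3277 and 3636 in DMSO and 37442, 34424 and 35055 in Chelator, a log2 fold change of 3.30 ± 0.083 (SE). For HIF1A the log2 fold change was 0.0027 ± 0.099 (SE, adjusted p = 0.989), and for its partner ARNT 0.15 (adjusted p = 0.219). MYC, a repressor of NDRG1, fell by 0.28 on the log2 scale (adjusted p = 0.00228), short of a call, and MYCN had too few counts to be tested. The median of the list was 0.61.

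Among 7 genes of oxygen sensing and lactate, which bear on NDRG3 protein, LDHA was called higher and none was called lower. Over all genes the shares were 7.81% and 2.46%, so 1 call here says little about the list. LDHA, which makes lactate from pyruvate, had 619, 698 and 641 TPM in DMSO and 1406, 1268 and 1351 TPM in Chelator. Its log2 fold change of 1.01 ± 0.076 (SE) lay at the threshold (adjusted p = 3.69e-38), and the call was lost without DMSO replicate 2 (0.98), without Chelator replicate 1 (0.96), without the length correction (0.79), with changes centred on their mean (0.85) and with protein-coding transcripts alone (0.99). EGLN3 (PHD3) rose by 0.89 (adjusted p = 1.26e-13), short of a call. EGLN2 (PHD1) and VHL, which marks hydroxylated HIF for degradation, fell by 0.25 and 0.28 on the log2 scale, also short of a call, while EGLN1 (0.077) and LDHB (-0.13) did not pass. The median of the list was -0.13.

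Of 6 membrane and signalling partners, ERRFI1, an inhibitor of EGF receptor signalling, was called higher at 2.02 ± 0.16 (SE, adjusted p = 2.89e-36, DESeq2) and none was called lower. Over all genes the shares were 7.81% and 2.46%, so 1 call here says little about the list. RABAC1, a prenylated Rab acceptor, rose by 0.88 (adjusted p = 5.51e-10), short of a call. RAB4A, through which NDRG1 acts in recycling endosomes, and CTNNB1 (beta-catenin) fell by 0.53 and 0.31 on the log2 scale, with adjusted p of 1.63e-07 and 0.00133, and LRP6 did not pass. The median of the list was -0.22.

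The hypoxia reference list held 10 genes known to be induced by low oxygen, of which 7 were called higher and none lower. The shares over all genes were 7.81% and 2.46%. VEGFA was at 2.64 ± 0.10, DDIT4 at 2.32 ± 0.074 and P4HA1 at 1.54 ± 0.086 (log2 fold change ± SE). CA9, carbonic anhydrase 9, had 0 counts in each DMSO library and was at least 58.1-fold higher in Chelator against a floor of 3 counts. ANKRD37 (1.69), KDM3A (1.1) and PDK1 (1.03) were called too. The call of KDM3A was lost without Chelator replicate 1 (0.92) and with centring (0.94). That of PDK1 was lost without DMSO replicate 3 (0.995), without Chelator replicate 3 (0.97), without the length correction (0.95), with centring (0.87) and with protein-coding transcripts alone (0.997). BNIP3 (0.59) and SLC2A1 (0.21) passed the p-value threshold and ADM (1.29, adjusted p = 0.175) did not, but ADM was called without the length correction (1.69, adjusted p = 0.031, DESeq2). The median of the list was 1.41, and the log2 fold change of NDRG1 was larger than that of each gene of the list with counts in DMSO.

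**Figure D5:**
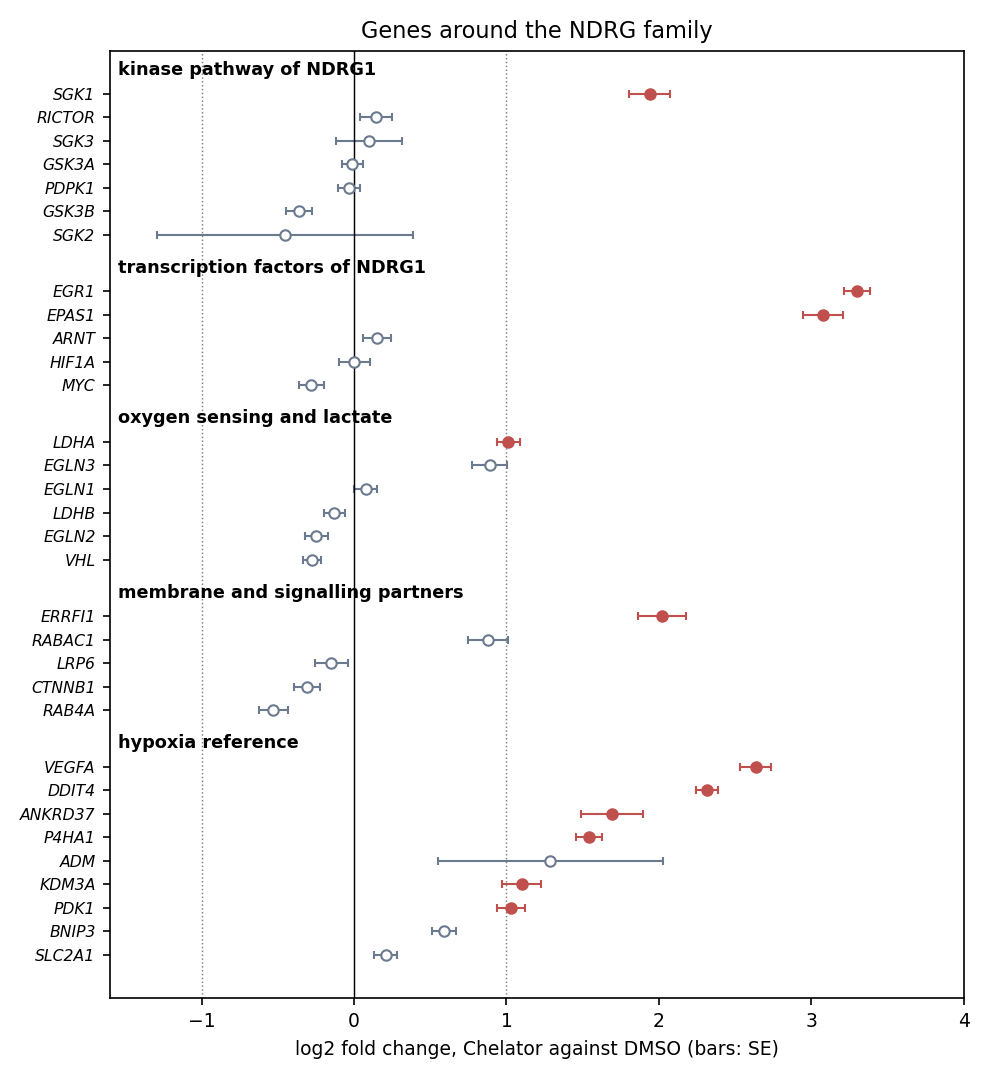
Log2 fold change (Chelator against DMSO) of genes in the 5 lists, with bars for the SE. Filled red points are called and open blue-grey points are not, and dotted lines mark a log2 fold change of 1 in either direction. CA9, at 0 in each DMSO library, and MYCN, not tested, are not drawn, nor are listed genes that are not reported here. EGR1 at 3.30 and EPAS1 at 3.08 lie furthest to the right.

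The 5 genes whose pattern was nearest to that of NDRG1 over the 6 libraries, of 10340 that averaged 500 or more normalized counts, were found by the root mean square difference of log2 normalized counts, centred on the DMSO mean. They were AKAP12 (0.28), NR4A1 (0.29), SCART1 (0.34), ABCB1 (0.39) and ENSG00000289609 (0.41). AKAP12, a scaffold for protein kinase A, had a log2 fold change of 4.18 ± 0.16, NR4A1, an early-response nuclear receptor, 4.24 ± 0.12, and ABCB1, a drug efflux pump, 4.03 ± 0.14 (SE). For SCART1 it was 4.53 ± 0.13 and for ENSG00000289609 4.98 ± 0.12. Such a distance largely measures how close a fold change is to that of NDRG1, so similar fold changes follow from the choice.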

How the data were processed

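The authors quantified paired-end, poly(A)-selected RNA-seq reads with Salmon 1.10.2 (submitters' processing notes). Each deposited file gives, for 252045 transcripts, the authors' estimated count, which need not be whole, TPM and effective length. The deposited TPM values are estimated counts divided by effective length and scaled to the same sum per library. The annotation is not given in the sources used here. Identifiers were matched to GENCODE v44 on hg38, and the 433 unmatched transcripts (0.139 to 0.150% of counts) were left out of gene sums.

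Counts were summed per gene and rounded. DESeq2 1.42.0 (Wald test, total above 10 counts), following the study's methods, was the main test in R 4.3.3. Average transcript length was used as an offset, which the study's methods do not state. The independent filtering of DESeq2 leaves some genes without an adjusted p. Usage was tested with edgeR 4.0.16 (diffSpliceDGE, transcripts or start sites, joined within 200 bases, each with 10 or more counts in 3 or more libraries) and limma 3.58.1. Skipped exons were read from the annotation, with a mean of at least 10 counts for inclusion and for exclusion, and tested with limma on log2 ratios with a pseudocount of 0.1 TPM; this test was added after the data were seen.

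Groups and replicate numbers came from the labels, and the series describes biological replicates. Members and lists were chosen with earlier results of these data known. Named were the 4 members, their transcripts with a mean share of at least 5% in either group, called genes and up to 3 others by mean count of each list, overlapping and nearest genes, and the 5 genes most like NDRG1. For NDRG4, 9 transcripts met the 5% rule, and not all of them are named. Further genes and transcripts named here were chosen after their values were seen. Some listed and marker genes are not reported here by name, but count in the totals and medians of their lists. Counting intervals and floors cover counting error only. The promoter table held entries for 2 of the 4 members, NDRG2 and NDRG4.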

Additional observations from a re-analysis of the deposited data

How the results depend on the processing

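Of 264 values recomputed under alternatives, 236 kept their direction and their side of the threshold or, where the value is a count of calls, stayed within 1.5 times the reported count. NDRG1 stayed called in all 14 alternatives tried on it (log2 fold change 4.30 to 4.62), and NDRG3 stayed lower with an adjusted p under 0.05 in all 14 (-0.89 to -0.67). For NDRG2, dropping the length offset gave 0.23 and centring on the mean log2 change -0.052, the former past the p-value threshold, and leaving out each library 0.027 to 0.20. For NDRG4, protein-coding transcripts alone gave 1.70, called, and leaving out each library -0.051 to 0.78. Centring moved the median of all genes from 0.019 to -0.15 and the split of called genes from 1996 higher and 628 lower to 1613 and 1048, so all changes are relative to that scaling.

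In the oxygen and lactate list the count of called genes was 0 without the length offset, 0 when centred and 0 to 1 without each library. In the partner list it was 2 without the length offset and 1 to 2 without each library, where RABAC1 was gained without DMSO replicate 1.

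For usage, limma's diffSplice called 3184 genes for transcripts and 1434 for start sites. It passed for NDRG2, where NDRG2-209 changed by -8.72 and its start site by -8.97 points, and for the NDRG4 start site of NDRG4-219 at -18.0 points. Leaving out each library gave 539 to 1063 genes for transcripts and 243 to 539 for start sites, with 592 and 243 without Chelator replicate 2 and 539 and 252 without Chelator replicate 3. The share change of NDRG1-201 was -6.29 to 8.48 points without each library and that of its start site -3.48 to 11.3, or -5.01 with sites joined within 1000 bases. The values of -6.29 and -3.48 came without DMSO replicate 3, and that of -5.01 from all 6 libraries. Joining within 1000 bases gave -0.63 points for the start site of NDRG2-209. Without any 1 Chelator library the minor NDRG1 transcripts had too few libraries with enough counts, so no value was obtained.

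The NDRG2 exon stayed at -13.0 to -9.45 points without each library and its adjusted p was 0.0531 or more throughout. The count of called exons was 73 in the main test, 1066 with a pseudocount of 1 TPM, 0 with the replicate block in limma (where 3465 of 20848 exons had an unadjusted p under 0.05) and 19 to 103 without each library, with 32 and 19 without DMSO replicates 1 and 2, and 20 and 24 without Chelator replicates 2 and 3.

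The libraries share replicate numbers but the sources do not pair them. Deviations of same-numbered libraries from their group means correlated at -0.075, 0.13 and 0.10. With the replicate block NDRG1 had a log2 fold change of 4.47, NDRG3 -0.73, NDRG2 0.12 and NDRG4 0.40, and 2333 genes were called against 2624. The low counts of NDRG4 and of minor NDRG1 transcripts limit what their shares can show.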
